A study of Homo sapiens with 4 samples.

Results

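The erythroid transcription factors described here were GATA1, GATA2, KLF1, TAL1, LMO2, NFE2, ZFPM1, GFI1B, BCL11A and MYB, that is 10 of the 20348 genes in the deposited table, picked by symbol and all found there. They were measured by RNA-seq in 4 libraries. K562 cells, a human line from chronic myeloid leukemia, and THP-1 cells, a human line from acute monocytic leukemia, were kept for 72 h in DMSO as the vehicle control or in 100 nM periplocin, a cardiac glycoside from Cortex periplocae. Each of the 4 conditions had 1 library, and the study names a single biological replicate, so no spread between replicates can be estimated. No test was run. Every interval below is a 95% interval that covers counting error only, and no difference has a replicate check. Each line stands for 1 leukemia, and the titles in the labels call the control samples blank where the library names and the methods name DMSO.

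Erythroid cells are specified by a small set of DNA-binding proteins. GATA1 and GATA2 recognise the same GATA motif, and in normal red cell development GATA2 is high in progenitors and gives way to GATA1. TAL1 binds E-box sites and is joined to GATA1 or GATA2 through LMO2 and LDB1 in one complex, KLF1 binds CACCC boxes in globin and red cell membrane genes, and NFE2 acts at the globin locus control region as a dimer with a small MAF protein. ZFPM1 (FOG1) is a cofactor of GATA1, GFI1B is a repressor, BCL11A silences the fetal globin genes, and MYB is high in dividing progenitors and declines as they mature. K562 is widely used as a model of fetal and embryonic globin expression, and THP-1 as a model of monocytes.

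The promoter sequences of the members with the largest ratios in K562 are shown because the factors described here bind such letters. Each is the 250 bases before a RefSeq start on GRCh38.p14, written 5′ to 3′ on the strand of the gene, with every GATA motif in capitals. The KLF1 window is chr19:12887202-12887451 on the minus strand, the first TAL1 window is chr1:47232336-47232585 on the minus strand and the MYB window is chr6:135181058-135181307 on the plus strand.
KLF1: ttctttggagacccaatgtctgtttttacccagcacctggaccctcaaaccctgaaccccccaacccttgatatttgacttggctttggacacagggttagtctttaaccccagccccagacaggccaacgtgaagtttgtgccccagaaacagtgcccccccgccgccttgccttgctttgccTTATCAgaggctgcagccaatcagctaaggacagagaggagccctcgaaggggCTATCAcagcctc
TAL1: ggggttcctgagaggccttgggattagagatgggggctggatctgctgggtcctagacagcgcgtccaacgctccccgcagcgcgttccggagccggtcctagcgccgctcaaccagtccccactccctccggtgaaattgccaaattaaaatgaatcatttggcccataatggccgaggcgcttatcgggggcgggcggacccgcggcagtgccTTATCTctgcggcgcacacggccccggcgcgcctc
MYB: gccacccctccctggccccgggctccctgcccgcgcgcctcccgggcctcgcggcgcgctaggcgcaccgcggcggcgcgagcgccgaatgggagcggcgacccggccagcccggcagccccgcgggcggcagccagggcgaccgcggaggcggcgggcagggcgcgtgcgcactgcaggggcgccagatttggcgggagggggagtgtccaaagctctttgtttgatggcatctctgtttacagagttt
The motif was AGATAA or AGATAG or TGATAA or TGATAG on either strand. It began at -66 and -13 from the start in KLF1 and at -35 in TAL1, and had 0 matches in the MYB window. Over the 15 windows found for 8 of the 10 members, 3 held the motif, namely those of KLF1 and TAL1 above and 1 of the GFI1B windows, against 22.3% of all 35116 promoter windows. Of the other 5 motifs searched on both strands, the CACCC-type box CNCNCCC was in 14 of the 15 windows and in 70.4% of all windows, the E-box CAGATG in 2 windows, both of GFI1B, and in 12.2% of all, the BCL11A motif TGACCA in 1 and in 9.19%, and the NFE2 motif TGAGTCA and the MYB motif TAACNG in 0 windows and in 4.20% and 17.6% of all. Such matches describe letters and are not binding sites. NFE2 and LMO2 have no entry in the promoter table.

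Library totals were between 16381149 and 20622694 counts, and levels were expressed as CPM, the count scaled by the library total. Genes with 3 counts or fewer were treated as being at the floor, which lies between 0.145 and 0.183 CPM depending on the library. The share of mitochondrial genes differed between the K562 libraries, at 5.62% under DMSO and 2.07% under periplocin, and less between the THP-1 libraries, at 5.24% and 3.92%. Totals without these genes lowered the log2 ratios of members by at most 0.05. Marker levels went with the labelled lines. The summed level of 10 erythroid markers was 1912 CPM in K562 DMSO and 10.2 CPM in THP-1 DMSO, and that of 10 monocyte markers was 88.6 and 674 CPM, with FCN1 at 0 in all 4 libraries. The 5 granulocyte precursor markers, which include the azurophil granule genes, summed to 5.56 CPM in K562 DMSO and 2224 CPM in THP-1 DMSO. The 9 megakaryocyte markers summed to 86.7 and 6.26 CPM with PF4 at 0 throughout, the 5 lymphoid markers to 8.55 and 0.776 CPM, and the 5 stromal or epithelial markers to 670 and 0.970 CPM, the K562 value coming from KRT8, KRT18 and EPCAM.

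In the DMSO libraries most members differed in level between K562 and THP-1. Of the 10 members, 7 were lower in THP-1 by at least 2-fold and 2 were higher, against 23.5% and 21.0% of the 12845 genes whose mean over that pair reached 1 CPM, or 44.5% either way. GATA1, KLF1, TAL1 and GFI1B reached that mean only through K562, and BCL11A only through THP-1. The members were picked as erythroid factors and THP-1 is a monocytic line, so these counts are a description and not an independent finding. GATA1 was at 166 CPM in K562 and 0.145 CPM in THP-1, where it had 3 counts, a ratio of 1139 (389 to 5528). GFI1B had 1353 and 2 counts, a ratio of 852 (235 to 7040), KLF1 had 1428 and 3 counts, a ratio of 599 (205 to 2909), and TAL1 had 3350 and 10 counts, a ratio of 422 (229 to 880). These 4 genes made up the members that THP-1 kept at or near the floor. GATA2 was 16.5-fold (14.7 to 18.6) higher in K562, NFE2 16.5-fold (14.7 to 18.5) and ZFPM1 11.9-fold (9.13 to 15.8), and all 3 were still counted in THP-1. LMO2 went the other way and was 4.04-fold (3.68 to 4.43) higher in THP-1. BCL11A had 3 counts in K562 DMSO and 255 in THP-1 DMSO, a ratio of 67.5 (22.8 to 330). MYB was high in both, at 493 and 614 CPM.

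**Figure D1:**
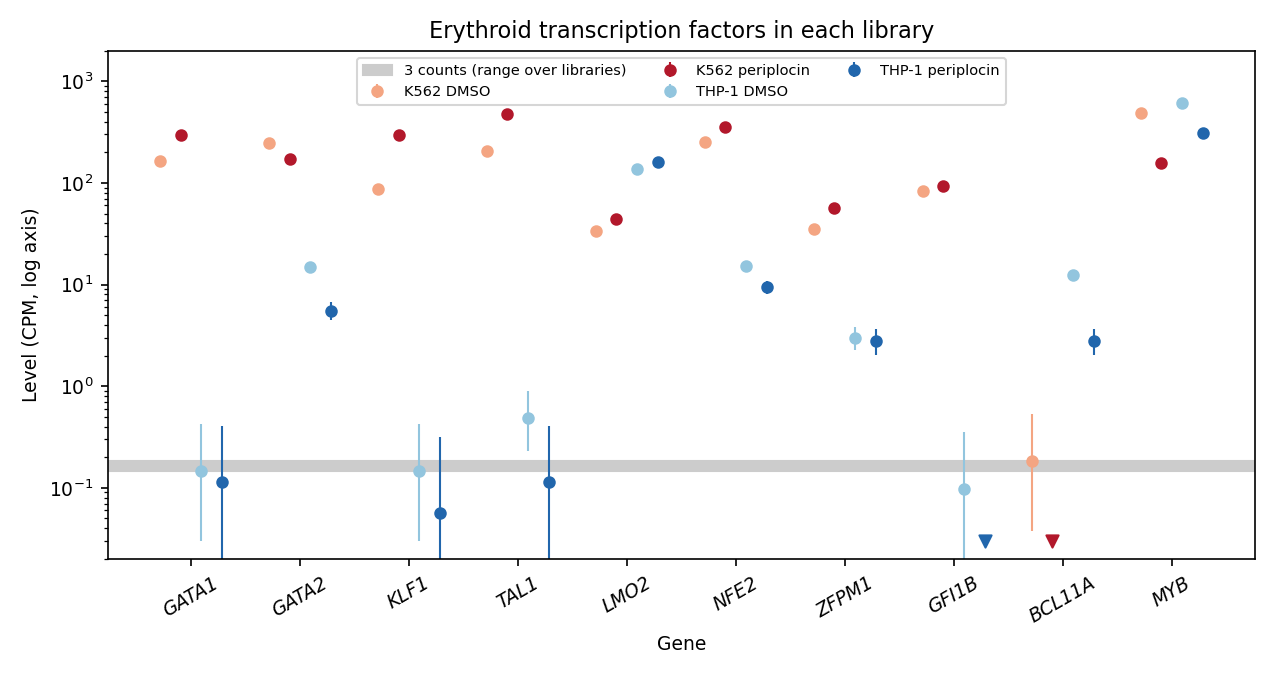
Level of each erythroid transcription factor in the 4 libraries, in CPM on a log axis. Points are single libraries, bars are 95% counting intervals that may run off the bottom of the axis, triangles at the bottom mark a count of 0, and the grey band is the CPM of 3 counts. GATA1, KLF1, TAL1 and GFI1B are between 82.6 and 477 CPM in K562 and under 0.5 CPM in THP-1, and MYB is above 150 CPM in all 4 libraries.

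Levels between genes were compared per kb of merged exons (RPKM), since a longer transcript gives more reads. In K562 DMSO the order was GATA1 at 110, NFE2 at 102, MYB at 89.7, GATA2 at 54.9, KLF1 at 54.1, TAL1 at 35.9, GFI1B at 13.5, LMO2 at 10.9 and ZFPM1 at 5.76 RPKM, with BCL11A at the floor. The intervals of GATA2 and KLF1 overlapped on merged exons, while with the longest annotated transcript these genes were at 72.7 and 54.1 RPKM. The top of the order depended on the length used, since with the longest annotated transcript it became NFE2, MYB and GATA1. In K562 periplocin the order was GATA1 at 199.6, KLF1 at 183, NFE2 at 145, TAL1 at 83.6, GATA2 at 38.8, MYB at 28.5, GFI1B at 15.4, LMO2 at 14.2 and ZFPM1 at 9.34 RPKM. KLF1 moved from the fifth to the second place and MYB from the third to the sixth, although KLF1 and NFE2 changed places with the longest transcript. The intervals of GFI1B and LMO2 overlapped on merged exons, while with the longest transcript these genes were at 31.1 and 19.3 RPKM. In THP-1 DMSO the order was led by MYB at 112 and LMO2 at 44.0 RPKM, followed by NFE2 at 6.21 and GATA2 at 3.33 RPKM. There BCL11A at 0.486 and ZFPM1 at 0.484 RPKM had overlapping intervals, while with the longest transcript they were at 1.63 and 0.550 RPKM. In THP-1 periplocin MYB at 55.9 and LMO2 at 51.3 RPKM still led, and NFE2 was at 3.79, GATA2 at 1.24, ZFPM1 at 0.453 and BCL11A at 0.109 RPKM.

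The main comparison set the periplocin library against the DMSO library of the same line. A gene was counted when its mean over the pair reached 1 CPM, and the words rose and fell are kept for ratios of at least 2. In K562, KLF1 and TAL1 rose and MYB fell, that is 2 higher and 1 lower of the 9 members counted, against 8.94% higher, 11.4% lower and 20.3% either way of all 11862 genes counted. The other 6 lay within 2-fold, and BCL11A was not counted. The log2 ratio was above 0 in 7 members and below 0 in 2, with a median of 0.51 against -0.00 over all genes. In THP-1, GATA2 and BCL11A fell, MYB was at the threshold, and 0 members rose, that is 3 lower of the 6 members counted, against 10.8% lower, 7.91% higher and 18.7% either way of all 12341 genes counted. The log2 ratio was above 0 in 1 member and below 0 in 5, with a median of -0.86 against -0.04 over all genes. GATA1, KLF1, TAL1 and GFI1B were not counted in THP-1. RNA from a whole culture was measured, so more or fewer cells of a type and more or less RNA per cell cannot be told apart.

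**Figure D2:**
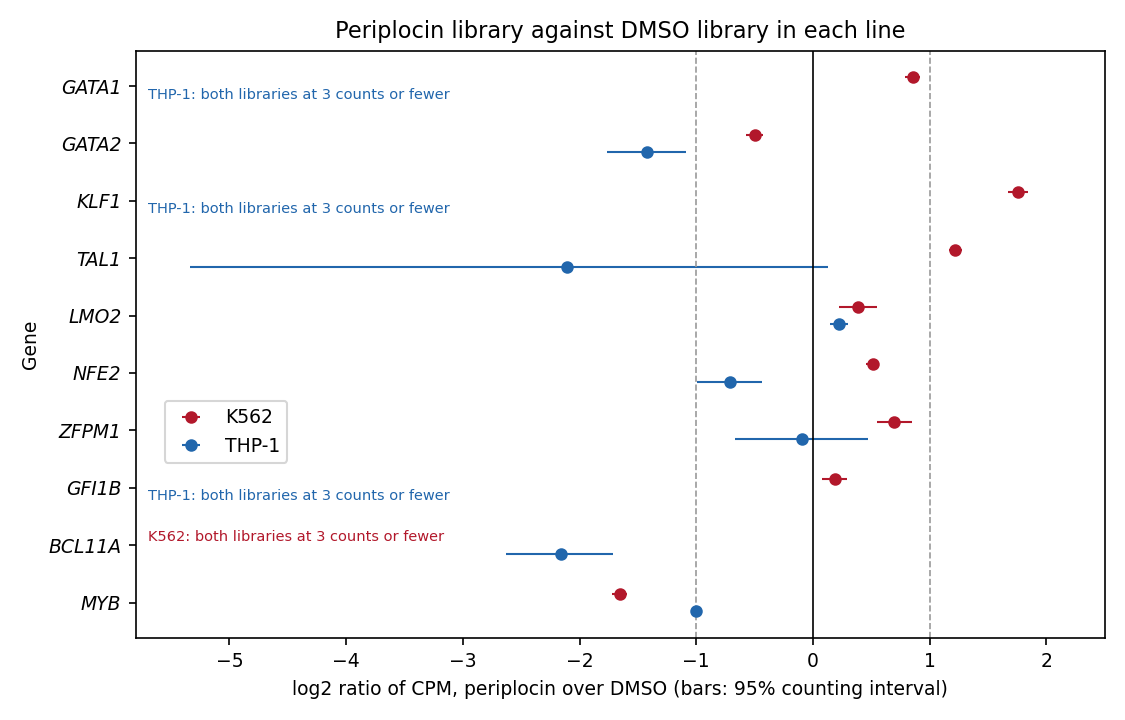
Log2 ratio of CPM in the periplocin library over the DMSO library for each member, with 95% counting intervals, in K562 (red) and THP-1 (blue). Dashed lines mark 2-fold, and a member with 3 counts or fewer in both libraries of a line has no point. KLF1 and TAL1 lie to the right of the upper line in K562, MYB lies left of the lower line in K562 and on it in THP-1, and NFE2 lies right of 0 in K562 and left of it in THP-1.

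GATA1 (ENSG00000102145), the master regulator of red cell genes, lies on the plus strand of chromosome X from 48786554 to 48794311 of GRCh38. It had 2715 counts (166 CPM) in K562 DMSO and 4959 counts (299 CPM) in K562 periplocin, and 3 and 2 counts in the THP-1 libraries. The K562 value was 1.81-fold (1.72 to 1.89) higher in periplocin, under the 2-fold threshold and above 88.2% of all genes counted. No fold is given in THP-1, where both libraries were at the floor.

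GATA2 (ENSG00000179348, minus strand of chromosome 3, 128479427 to 128493185), the GATA factor of progenitors and mast cells, had 4008 counts (245 CPM) under DMSO and 2864 (173 CPM) under periplocin in K562, and 306 (14.8 CPM) and 98 (5.53 CPM) in THP-1. Both periplocin libraries were below their controls. The log2 ratio was -0.50 (-0.57 to -0.43) in K562, within 2-fold, and -1.42 (-1.77 to -1.09) in THP-1, which is 2.68-fold lower. The K562 ratio exceeded the THP-1 ratio by 0.92 (0.59 to 1.26) on the log2 scale.

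Within the K562 libraries GATA1 counts gained on GATA2 counts under periplocin. There were 0.677 (0.645 to 0.711) GATA1 counts for each GATA2 count in DMSO and 1.73 (1.65 to 1.81) in periplocin, a change of 2.56-fold (2.39 to 2.73) that does not use the library totals. A ratio of counts also follows transcript length, so only its change is read. GATA1 against SPI1, the myeloid factor PU.1 that opposes GATA1, went from 8.01 to 27.7, a change of 3.46-fold (2.87 to 4.17), with SPI1 at 339 and 179 counts.

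KLF1 (ENSG00000105610, minus strand of chromosome 19, 12884422 to 12887199) had 1428 counts (87.2 CPM) in K562 DMSO and 4883 (295 CPM) in K562 periplocin, and 3 and 1 counts in THP-1. It showed the highest ratio of the members, 3.38-fold (3.19 to 3.59), above 97.1% of all genes counted. KLF1 is the activator of adult globin and of many red cell membrane genes. Its count went from 0.526 to 0.985 of the GATA1 count, a change of 1.87-fold (1.74 to 2.02), and from 0.177 to 1.88 of the MYB count, a change of 10.6-fold (9.89 to 11.5). KLF1 and MYB had the highest and lowest K562 ratios of the members counted, so the size of the last change follows from the choice of pair.

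**Figure D3:**
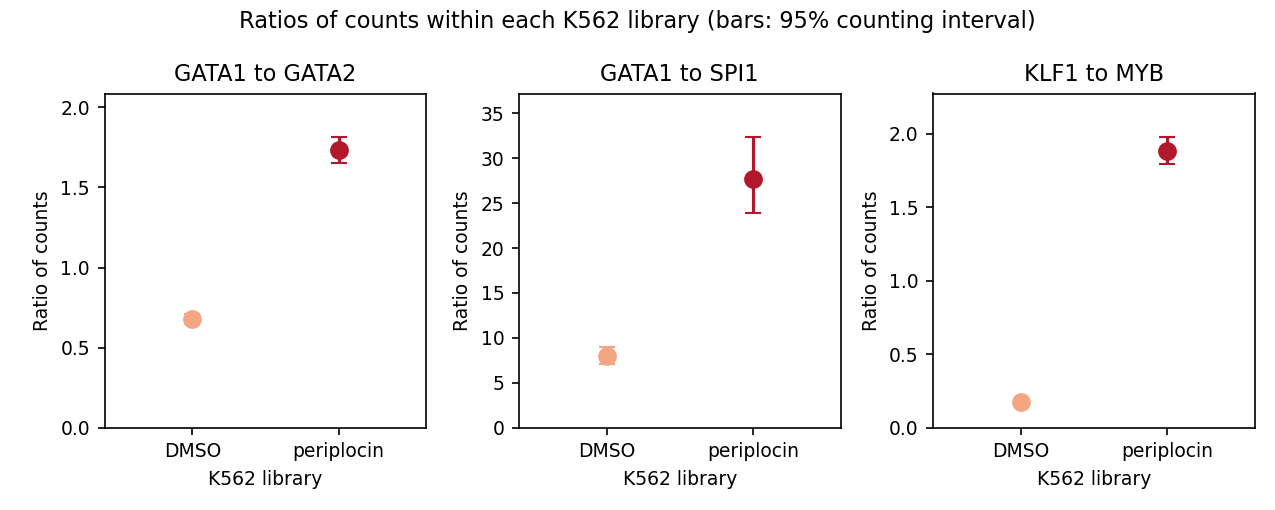
Ratio of the counts of 2 genes within each K562 library, on linear axes that start at 0, with 95% counting intervals as bars. GATA1 to GATA2 went from 0.677 in DMSO to 1.73 in periplocin, GATA1 to SPI1 from 8.01 to 27.7 and KLF1 to MYB from 0.177 to 1.88. Of these ratios only GATA1 to GATA2 was planned, and KLF1 and MYB are the members with the highest and lowest ratios in K562.

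TAL1 (ENSG00000162367, minus strand of chromosome 1, 47216290 to 47232220), the basic helix-loop-helix member of the LDB1 complex, had 3350 counts (205 CPM) in K562 DMSO and 7895 (477 CPM) in K562 periplocin. It rose 2.33-fold (2.24 to 2.43), above 94.0% of all genes counted, and had the highest CPM of the members in K562 periplocin. In THP-1 it had 10 and 2 counts, a log2 ratio of -2.10 with an interval from -5.33 to 0.13, and was under the level counted. An antisense gene shares 845 bp of its exons. The strand setting of the counting is not given in the sources used here, so reads of the pair cannot be told apart.

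LMO2 (ENSG00000135363, minus strand of chromosome 11, 33858576 to 33892289), the bridging protein of that complex, had 555 counts (33.9 CPM) and 732 (44.2 CPM) in K562 DMSO and periplocin, and 2821 (137 CPM) and 2827 (159.5 CPM) in THP-1. Its log2 ratios of 0.38 (0.22 to 0.55) and 0.22 (0.15 to 0.30) were both within 2-fold. They differed by 0.16 (-0.01 to 0.34), an interval that includes 0. It was the member counted in both lines with the intervals of both ratios above 0, and the share of all genes that do so was not worked out. These ratios were not extreme, being above those of 71.7% of all genes counted in K562 and 66.4% in THP-1.

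NFE2 (ENSG00000123405, minus strand of chromosome 12, 54292111 to 54301121) had 4128 counts (252 CPM) under DMSO and 5949 (359 CPM) under periplocin in K562, and 316 (15.3 CPM) and 166 (9.37 CPM) in THP-1. Periplocin was above DMSO in K562, at a log2 ratio of 0.51 (0.45 to 0.57), and below it in THP-1, at -0.71 (-0.99 to -0.43). Both were within 2-fold. Of the 5 members counted in both lines, NFE2 was the 1 with opposite directions and both intervals leaving out 0, and the ratios differed by 1.22 (0.944 to 1.499) on the log2 scale. The share of all genes with such opposite directions was not worked out.

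ZFPM1 (ENSG00000179588, plus strand of chromosome 16, 88453317 to 88537016) had 577 counts (35.2 CPM) and 945 (57.1 CPM) in K562 DMSO and periplocin, and 61 (2.96 CPM) and 49 (2.77 CPM) in THP-1. The log2 ratio was 0.70 (0.55 to 0.85) in K562 and -0.10 (-0.67 to 0.47) in THP-1, where a difference was not detectable at this depth. GFI1B (ENSG00000165702, plus strand of chromosome 9, 132944000 to 132991687) had 1353 (82.6 CPM) and 1557 (94.0 CPM) counts in K562 and 2 and 0 in THP-1. Its K562 log2 ratio of 0.19 (0.08 to 0.29) was the nearest to 0 of the members. GFI1B and TSC1 share 349 bp of exon on opposite strands, and TSC1 had 1061 and 2879 counts in K562.

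BCL11A (ENSG00000119866, minus strand of chromosome 2, 60450520 to 60555154) had 3 and 0 counts in the K562 libraries, so no fold is given there, and 255 (12.4 CPM) and 49 (2.77 CPM) in THP-1 DMSO and periplocin. It fell by 2.16 on the log2 scale in THP-1 (interval -2.63 to -1.72), a 4.47-fold lower level and the lowest ratio of the members, below all but 1.47% of the genes counted. In THP-1 it went from 0.0201 to 0.00901 of the MYB count.

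MYB (ENSG00000118513, plus strand of chromosome 6, 135181315 to 135219173) had 8071 counts (493 CPM) under DMSO and 2592 (157 CPM) under periplocin in K562, and 12669 (614 CPM) and 5441 (307 CPM) in THP-1. It was lower in periplocin in both lines. In K562 it was 3.15-fold (3.01 to 3.29) lower, and only 4.60% of all genes counted had a lower ratio. The THP-1 value was 2.001-fold (1.94 to 2.07) lower, at the threshold, and its log2 ratio of -1.001 became -0.99 with TMM scaling and -0.98 with DESeq2 size factors, which leaves 2 members past 2-fold in THP-1. The ratios differed between lines by -0.65 (-0.73 to -0.58). An antisense gene shares 103 bp of its exons.

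The partners of the members were read from lists written from general knowledge, with earlier results of these data known. Each list below is to be read against all genes counted, where 8.94% rose and 11.4% fell in K562. In THP-1 these shares were 7.91% and 10.8%. A count near these shares says nothing particular about a list. Of 10 LDB1 complex partners, all counted, 1 rose in K562 and 0 passed 2-fold in THP-1, with medians of 0.16 and 0.14 on the log2 scale. LDB1, the dimerising core of the complex, went from 2589 to 7268 counts in K562 (log2 ratio 1.47) and from 1314 to 2025 in THP-1 (0.84). TCF3, whose E proteins pair with TAL1, had log2 ratios of 0.66 in K562 and -0.77 in THP-1, and LMO4, a relative of LMO2, had -0.83 and 0.70. CBFA2T3 (ETO2), the corepressor of the complex, was lower in both lines at -0.94 and -0.96, and SSBP3, which stabilises LDB1, had 0.74 in THP-1.

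The 7 NFE2 dimer partners and relatives had medians of -0.48 in K562 and 0.61 in THP-1, with 1 lower of 7 counted in K562 and 1 higher of 6 counted in THP-1. BACH2, a repressor that also pairs with small MAF proteins, fell in K562 from 301 to 69 counts (log2 ratio -2.14) and had 6 and 11 counts in THP-1. MAFF had -0.72 in K562 and rose in THP-1 at 1.25, from 26 to 53 counts. The small MAF genes MAFG, at 0.21 and 0.13, and MAFK, at 0.05 and 0.51, and BACH1, at 0.38 and 0.31, stayed within 2-fold. NFE2L1 had -0.84 and 0.71, and NFE2L2 (NRF2), the regulator of the antioxidant response, had -0.48 and 0.93, the reverse of the directions of NFE2 itself.

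The 14 corepressor genes bound by GATA1 with ZFPM1, by GFI1B or by BCL11A were all counted and 0 passed 2-fold in either line, with medians of 0.13 in K562 and 0.09 in THP-1. HDAC1 had log2 ratios of 0.59 and 0.55, KDM1A (LSD1), the demethylase recruited by GFI1B, 0.48 and -0.25, and CHD4, the NuRD remodeller, -0.39 and 0.54. GATAD2A and MTA3 were at -0.46 and -0.45 in K562, and GATAD2B and MBD2 at 0.81 and 0.54 in THP-1. Among 12 other regulators of fetal globin, 1 rose of 12 counted in K562 and 1 fell of 7 counted in THP-1, with medians of 0.27 and -0.22. HIC2, a repressor of BCL11A, went from 3332 to 6772 counts in K562 (log2 ratio 1.01) and had -0.22 in THP-1. NR2F2 had -0.99 in K562, and fell in THP-1 from 41 to 12 counts, the latter named after its values were seen. HIC2 and NR2F2 both lay at the threshold in K562, where TMM scaling and totals without mitochondrial genes gave 0 higher and 1 lower in place of 1 higher and 0 lower, so the count has no stable direction. NR2C1 had 0.86 in K562 and 0.36 in THP-1, NFIX 0.78 and -0.29, and NR2C2 and IKZF1 had 0.59 and -0.52 in THP-1.

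Of 24 erythroid targets of GATA1 and KLF1, 23 were counted in K562, where 19 rose and 0 fell, with a median log2 ratio of 2.05. Over all genes counted in K562, 8.94% rose and 11.4% fell. EPB42, the membrane skeleton protein 4.2, went from 24 to 1374 counts (log2 ratio 5.82), SLC4A1 (band 3) from 1257 to 22563 (4.15), HBA2 from 1138 to 12070 (3.39) and HBZ from 2119 to 19908 (3.22). HBA1 and HBA2 are near-identical, as are HBG1 and HBG2, so how their reads were shared is uncertain. The 4 counted targets within 2-fold, named after their values were seen, were ICAM4 at 0.49, E2F2 at -0.33, SLC25A37 at 0.98 and BCL2L1, an antiapoptotic gene, at -0.90. HBB, the adult globin, had 0 and 3 counts. All 10 erythroid markers, most of which are also in the target list, rose, and their summed level went from 1912 to 8957 CPM. THP-1 counted 7 of the 24 targets with 0 past 2-fold and a median of -0.36, and there FECH was at -0.81, ERMAP at -0.73, BCL2L1 at -0.46 and SLC25A37 at -0.36. The sum of the erythroid markers in THP-1 was 10.2 CPM in DMSO and 8.41 CPM in periplocin, with GYPB and AHSP at 0, and the 1 marker counted lay within 2-fold. Lists and members overlap in what is known of them, so these counts are not independent of the members.

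**Figure D4:**
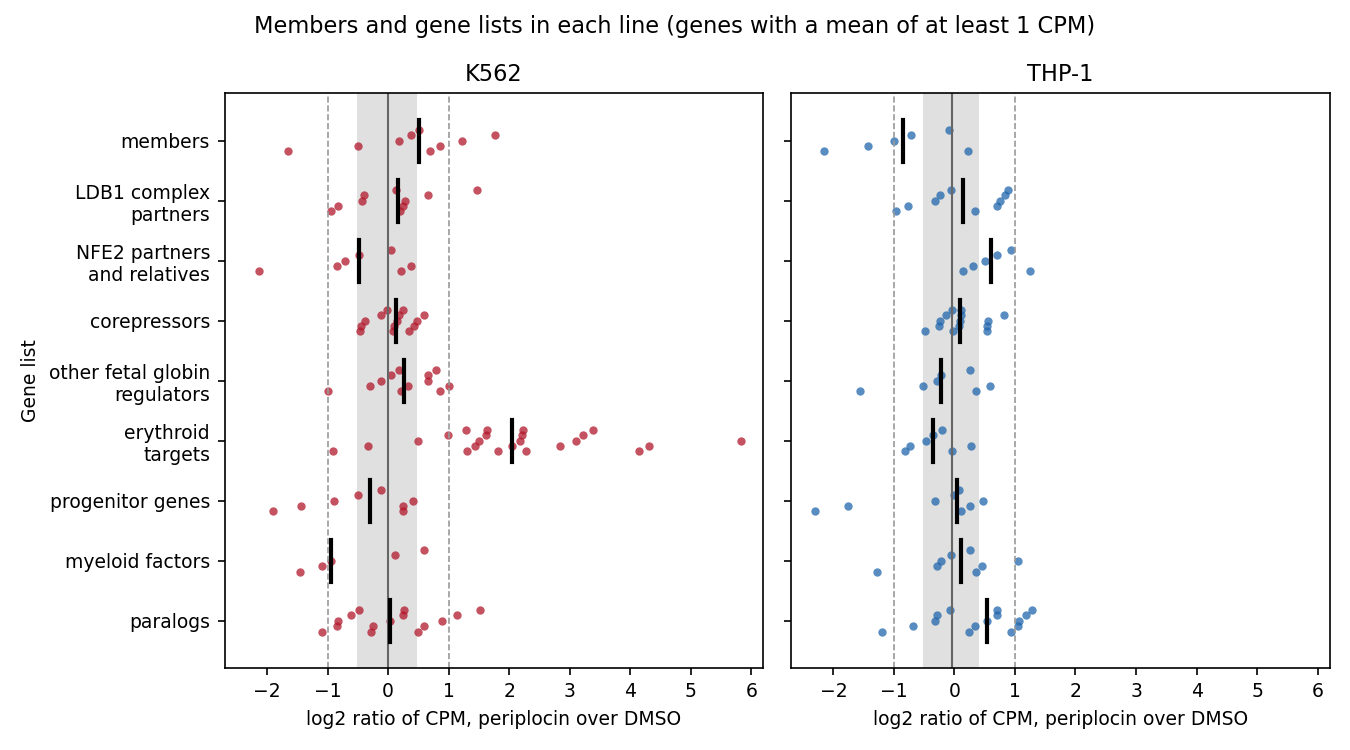
Log2 ratio of CPM, periplocin over DMSO, for the members and 8 gene lists in K562 (left) and THP-1 (right). Points are single genes that reached a mean of 1 CPM over the pair, thick bars are list medians, the grey band and line are the middle 50% and the median of all genes counted, and dashed lines mark 2-fold. In K562 the erythroid targets, with a median of 2.05, lie mostly right of the upper line, and in THP-1 the median of the members, at -0.86, lies left of the grey band.

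Of 12 progenitor genes, 8 were counted in each line and 2 fell in each, with medians of -0.31 and 0.04. RUNX1 and HHEX fell in K562, from 2855 to 770 counts (log2 ratio -1.91) and from 2193 to 815 (-1.44), and were at -0.00 and 0.47 in THP-1. MYC had -0.90 in K562 and fell in THP-1 from 5889 to 1024 counts (-2.31), and KIT, the stem cell factor receptor, fell in THP-1 from 291 to 74 counts (-1.76), which was named after its values were seen. MECOM had 0.24 in K562, LYL1 had -0.32 and HOXA9 0.26 in THP-1, and CD34 was at 0 in all 4 libraries. Of 8 myeloid transcription factors, 5 were counted in K562, where 2 fell, and 8 in THP-1, where 1 rose and 1 fell, with medians of -0.94 and 0.10. CEBPB, a C/EBP factor of granulocytes and macrophages, fell in K562 from 1429 to 525 counts (-1.46) and GFI1 from 40 to 19 (-1.09), and they were at 0.26 and -0.29 in THP-1. The GFI1 interval in K562 was -1.96 to -0.27. At a minimum mean of 5 CPM, or with intervals wholly past 2-fold, 1 of these factors was lower in K562 in place of 2. SPI1 was at -0.94 in K562 and 0.46 in THP-1. IRF8, a monocyte factor, fell in THP-1 from 12161 to 4323 counts (-1.27) and KLF4 rose from 187 to 331 (1.04), with 0.60 in K562. The KLF4 interval in THP-1 was 0.78 to 1.31, so with intervals wholly past 2-fold 0 of these factors were higher there. CEBPD had 0.11 and 0.36, CEBPA had -0.22 in THP-1 and 23 and 7 counts in K562, and CEBPE had -0.05 in THP-1.

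Marker sums of other cell types were set beside the members. In K562 the megakaryocyte sum went from 86.7 to 260.5 CPM, of 9 markers 4 were counted, and GP1BB and ITGB3 rose while ITGA2B fell. GATA1, TAL1, NFE2, ZFPM1 and GFI1B are also used by megakaryocytes. GP1BB alone had 1193 and 4106 counts, and PF4 was at 0. The monocyte sum went from 88.6 to 115 CPM in K562, where CD14 and ITGAM rose and CD33 fell among 5 of 10 counted, and from 674 to 971 CPM in THP-1, where CD14, CD68, FCGR1A and ITGAM rose and S100A9 fell among 8 counted. In K562, CD14 had 1 and 69 counts and ITGAM 33 and 75, and at a minimum mean of 5 CPM neither was counted. The granulocyte precursor sum went from 5.56 to 3.86 CPM in K562, where AZU1 fell and was the 1 marker counted, and from 2224 to 1504 CPM in THP-1, where MPO, PRTN3 and CTSG fell and ELANE and AZU1 were within 2-fold. The lymphoid sum went from 8.55 to 7.06 CPM in K562, nearly all of it CD3D, and from 0.776 to 1.18 CPM in THP-1, and the stromal or epithelial sum from 670 to 570.5 CPM in K562 and from 0.970 to 1.298 CPM in THP-1. Only 1 lymphoid and 3 stromal or epithelial markers were counted in K562, all within 2-fold, and 0 in THP-1, and COL1A1 and COL1A2, which were too low to be counted, had 9 and 23 and 19 and 9 counts in K562. The part of these shifts in the values of the members was not tested.

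Paralogs of the members were compared by RNA level and ratio. Of 23 paralogs, 15 were counted in each line, with 2 higher and 1 lower in K562, a median of 0.03, and 4 higher and 1 lower in THP-1, a median of 0.55. GATA1 per kb was the highest GATA gene in K562 and GATA2 in THP-1, and the paralog with the most reads, GATA5 in K562, rose from 58 to 167 counts, while GATA6 in THP-1 rose from 25 to 52. KLF1 led its family per kb in both K562 libraries, ahead of KLF3 with 3412 and 4157 counts. KLF13 rose in K562 from 1208 to 2680 counts (log2 ratio 1.13) and led in THP-1 DMSO at 16.5 RPKM. In THP-1, KLF10 and KLF6 rose at 1.18 and 1.07 and KLF2 fell at -1.19, and the K562 values were -0.61 for KLF10 and -0.25 for KLF6. LYL1 had 1634 and 1948 counts in the K562 libraries and 684 and 472 in the THP-1 libraries, and led its pair per kb in THP-1, where TAL1 was near the floor. NFE2 exceeded NFE2L1 per kb in K562, at 102 against 69.4 RPKM in DMSO, and was below it in THP-1, at 6.21 against 28.0 RPKM.

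The GFI1 pair was split between the lines. GFI1B had 13.5 RPKM in K562 DMSO against 0.740 for GFI1, and GFI1 had 112 RPKM in THP-1 DMSO against 0.0159 for GFI1B. LMO4 at 13.5 RPKM exceeded LMO2 at 10.9 RPKM in K562 DMSO, and in K562 periplocin LMO2 at 14.2 RPKM exceeded LMO4 at 7.59 RPKM. With the longest transcript LMO2 was at 14.8 RPKM in K562 DMSO, and no such value is given for LMO4, so the DMSO order may depend on the length used. MYBL2, a cell cycle relative of MYB, had 3164 and 3272 counts in K562, so that at 71.1 RPKM it exceeded MYB at 28.5 RPKM in K562 periplocin, and it had 4641 and 2490 counts in THP-1. ZFPM2 had 347 and 647 counts in K562, a log2 ratio of 0.88, and 1 and 2 in THP-1. BCL11B had 0 counts in both K562 libraries and 9 and 4 in THP-1.

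Likeness of pattern was measured as the distance between centred log2(CPM + 1) values over the 4 libraries, among 12943 genes. The 4 points share lines and treatments, so this is a description. Nearest to GATA1 were ISYNA1 at 0.261, CTCFL at 0.295 and KCNH2 at 0.296. Nearest to GATA2 were CDC42EP1 at 0.252, AIF1L at 0.329 and MDK at 0.377, and nearest to KLF1 were KRT19 at 0.278, PKLR at 0.342 and TENM1 at 0.357. MYB had the closest neighbours, TATDN1 at 0.0789, TRIM45 at 0.125 and C7orf50 at 0.189. Among the members themselves the smallest distances were 0.476 between GATA1 and TAL1, 0.770 between GATA1 and KLF1, 0.848 between KLF1 and TAL1 and 0.860 between GATA2 and NFE2. The distance takes in the difference in level between the lines, so a small value is not likeness of response. GATA2 and NFE2 had log2 ratios of -0.50 and 0.51 in K562.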

How the data were processed

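Poly-A RNA of 4 cell line samples was sequenced as 150 bp paired-end reads. The methods name the T7 platform and the labels an Illumina instrument. The submitters' processing notes name HISAT2, StringTie 1.3.1 and hg38, and the annotation and strand setting are not given in the sources used here. The authors deposited an expected count per gene and library, not normalized and not pooled, and between 87.4% and 88.3% of values were whole. Expected counts were rounded here, CPM was taken on library totals, and ratios were given with exact Clopper-Pearson intervals conditional on the sum of the counts. Intervals and floors cover counting error only. Counts that divide ambiguous reads are not independent, so this is the least error they can have.

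Symbols were matched for 20310 of 20348 identifiers, and positions and merged exon lengths came from GENCODE release 29 (20118 genes). Python 3.11.15, numpy 2.4.6, pandas 2.3.3, scipy 1.17.1 and matplotlib 3.10.9 were used, and edgeR 4.0.16 (TMM) and DESeq2 1.42.0 (size factors) in R 4.3.3 served as other scalings only, with no test. The calculations were tested on simulated counts with counting error only and log2 changes of 2 either way in genes of at least 5 CPM. Such counts cannot show how calls near 2-fold, or at lower levels, would repeat between cultures. Other settings were unrounded counts, totals without mitochondrial genes, a minimum mean of 5 CPM, no filter, a ratio of at least 1.5 and intervals wholly past 2-fold. The longest transcript as length was chosen after seeing the data.

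The members and the 14 lists were chosen with earlier results of these data known. The genes named are every member, every gene of a list of 8 or fewer, the 4 genes of a longer list with the largest log2 ratio either way among those averaging 10 CPM or more, the 3 genes most like GATA1, GATA2, KLF1 and MYB in pattern, and the paralog with the highest CPM of each family. ITGA2B and ITGB3 in K562, S100A9 in THP-1, CD14 and ITGAM in K562, HBA1, HBB, GYPB, AHSP, CD34, PF4 and FCN1 fall outside this rule and were named after their values were seen, as were those so marked in the text.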

Additional observations from a re-analysis of the deposited data

Results flagged for a closer look

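Of the 74 members and listed genes counted in both lines, 27 had a periplocin ratio on opposite sides of equality in the lines, with both counting intervals leaving it out. With 1 library per condition, none of these differences was tested, and no explanation was weighed. The share of opposite genes over the whole table was not worked out, so 27 of 74 cannot be called many or few. Counting intervals are narrow for genes with many reads, and RCOR1 is included at log2 ratios of -0.11 in K562 and 0.08 in THP-1. Values are the log2 ratio in K562 minus that in THP-1. Among the members this applied to NFE2, at 1.22. Among the LDB1 complex partners it applied to TCF3 at 1.43, SSBP2 at -0.74, TCF12 at 0.36, LMO4 at -1.54 and LYL1 at 0.55. Among the NFE2 partners and relatives it applied to MAFF at -1.96, NFE2L1 at -1.55 and NFE2L2 at -1.41, and to the paralog NFE2L3 at -0.62. The corepressors KDM1A at 0.74, CHD4 at -0.93, RBBP4 at 0.33 and RCOR1 at -0.19 and the globin regulators HIC2 at 1.23 and NFIX at 1.08 were also opposite. Of the erythroid targets FECH differed by 3.09, ERMAP by 2.79, SLC25A37 by 1.34 and E2F2 by -0.60. The remaining genes were HHEX at -1.91, BMI1 at -0.20, SPI1 at -1.40, CEBPB at -1.72, KLF6 at -1.32, KLF10 at -1.79 and the monocyte marker LYZ at 0.79.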

How the results depend on the processing

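No paired analysis was possible because each condition had 1 library, and for the same reason no library could be left out. None of the log2 ratios of members changed sign. Recomputed with TMM, DESeq2 size factors, totals without mitochondrial genes and unrounded counts, 102 of them stayed within their counting interval and 2 did not: the ratio of MYB between the lines was 0.44 with TMM and with DESeq2 size factors in place of 0.32. In that comparison these scalings moved the median of all genes from -0.10 to 0.02 and 0.03, and the genes higher and lower in THP-1 DMSO from 2698 and 3019 to 2924 and 2719 with TMM and 2933 and 2711 with DESeq2 size factors. The other fetal globin regulators in K562 went from 1 higher and 0 lower to 0 and 1 with TMM and with totals without mitochondrial genes, the monocyte markers in K562 from 2 and 1 to 0 and 1 at 5 CPM, and the paralogs in K562 from 2 and 1 to 3 and 4 with no filter. At a ratio of at least 1.5, 4 members were higher in K562 in place of 2. Members lower in THP-1 numbered 2 with TMM, with DESeq2 size factors and with intervals wholly past 2-fold, in place of 3, and 4 with no filter or at 1.5-fold. Over all genes, those higher in K562 numbered 1061, and 1598 with no filter, 2293 at 1.5-fold and 674 with intervals wholly past 2-fold. Those lower in K562 numbered 1351, and 895 at 5 CPM, 2582 at 1.5-fold and 804 by interval. In THP-1 the higher genes numbered 976, and 619 at 5 CPM, 1551 with no filter, 2069 at 1.5-fold and 627 by interval, and the lower genes 1330, and 873 at 5 CPM, 2666 at 1.5-fold and 740 by interval. Over all lists together, genes lower in K562 numbered 8, and 16 with no filter, 18 at 1.5-fold and 5 by interval. In THP-1 those higher numbered 10, and 16 with no filter, 20 at 1.5-fold and 4 by interval, and those lower numbered 9, and 16 with no filter and 15 at 1.5-fold. Depth limits GATA1, KLF1, TAL1 and GFI1B in THP-1 and BCL11A in K562, which had 10 counts or fewer.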
